A study of Mus musculus with 6 samples.

Results

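Reads with G-rich seeds were short RNAs bound to Argonaute (Ago) proteins in mouse brain whose 6mer seed, the bases at positions 2 to 7, held 4 or more G. Of the 65087 sequences read in at least 1 sample, 3172 had such a seed. The samples were 3 WT mice and 3 mice labelled Tau fragment tg, here Tau tg, which carry a fragment of human tau driven by the neuronal Thy 1.2 promoter, in male animals at 3 months of age per the study's methods. Each sample was cortex and hippocampus combined per the labels' protocol, although the labels' source name gives hippocampus alone, and Ago complexes were pulled down with a peptide derived from GW182. The table holds no measurement of the transgene, so the genotype could not be checked. Because the tissue is a mixture, fewer cells of a type and less of an RNA per cell cannot be told apart in any value below.

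An Ago protein holds a short RNA so that its seed is free to pair with messenger RNAs, and those with matching sites are silenced. In Death Induced by Survival gene Elimination (DISE), the process the study addresses, some seeds lower cell viability because they match genes that cells need to survive, and G-rich seeds are known as the most toxic class. Most Ago-bound RNAs of brain are miRNAs, which are cut from hairpins with an arm at either side, and only some miRNA arms begin with a run of G. Viability here is the deposited score of each seed, the percent of cells alive after transfection of an RNA with that seed, averaged over murine cell lines. A low score marks a toxic seed. Amounts are in RPM, that is, after scaling for how many reads each library had.

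The sequences on which the results turn are given 5′ to 3′ with the seed in capitals. The first is the most abundant member, which matched no miRNA. The next 3 lines are mature miRNAs with G-rich seeds. The last lines show an miRNA with a pair of starts, and 1 of a set of reads that share a 3′ stretch. They are taken from the deposited table or, for miRNAs, from RefSeq on GRCm38.p6.
leading read with seed GCGGGU: cGCGGGUgcuuacugacccuuu
miR-744-5p: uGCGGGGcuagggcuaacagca
miR-423-5p: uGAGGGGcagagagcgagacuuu
miR-342-5p: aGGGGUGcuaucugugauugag
miR-770-3p, start with a G-rich seed: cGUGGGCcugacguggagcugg
miR-770-3p, start 1 base later: gUGGGCCugacguggagcugg
read with seed GGGGGC: uGGGGGCacauguaaacca

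Members were rare and spread over many low sequences. By their number of G, 2587 sequences had 4, 572 had 5 and 13 had the seed GGGGGG, and every possible G-rich seed was found, 135 with 4 G, 18 with 5 and GGGGGG. Between 601 (WT 3) and 1162 (Tau tg 1) members were detected per sample, and 103 were above 0 in all 6. Members were seen in a single sample in 76.1% of cases, against 59.1% of the other sequences. Samples differed in depth, from 998248 to 6879551 reads, of which 13054 to 48992 were member reads, and Tau tg 1, the deepest, also held the most members. A mean of at least 1 RPM was reached by 1869 members, at least 10 RPM by 105 and at least 100 RPM by 9. The 99 most abundant sequences held 50% of the members' RPM and the leading one alone held 12.3%.

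G-rich seeds took about 1 in 100 of the Ago-bound reads in both groups. They made up 0.855%, 1.36% and 1.31% of the RPM in WT 1 to 3 and 0.712%, 1.501% and 1.33% in Tau tg 1 to 3. Replicate 1 of each group was the lowest, and the groups overlapped throughout. The mean was 1.17% ± 0.277 for WT and 1.18% ± 0.415 for Tau tg (SD, n = 3 each), a difference of 0.00731 percentage points (exact two-sided permutation p = 1, adjusted p = 1 over 4 summary measures). With 3 mice against 3 the test cannot give a p below 0.1. The sign of this difference was not stable, since it was -0.131 points without the reads that share a 3′ stretch, described further on, -0.152 without WT 1 and -0.153 without Tau tg 2. Counting error was small beside this spread, with a 95% Wilson interval of 0.843% to 0.868% in WT 1.

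The seeds of this class scored low on viability. The median score over these seeds was 29.4, against 65.1 over all other seeds, and 126 of them (81.8%) scored under 50, against 28.4% of the others. The median went from 72.2 for seeds without G to 51.0 for seeds with 3, 31.2 with 4 and 17.3 with 5. GGGGGG itself scored 53.0. The class was not uniform: the lowest were GGCUGG with a score of 6.60, GGUGGG with 7.20 and GCGGCG with 8.30, while UCGGGG reached 97.5 and AUGGGG 79.9. All 18 seeds with 5 G scored under 50, from GGUGGG to AGGGGG with 49.1.

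Weighted by RPM, the mean seed viability of the members was 27.1, 29.4 and 29.8 in WT and 27.1, 25.2 and 27.7 in Tau tg. Here Tau tg 3 lay within the range of WT, Tau tg 1 at its lower end and Tau tg 2 below it. The group means were 28.8 ± 1.42 and 26.7 ± 1.31 (SD, n = 3 each), a difference of -2.06 (exact two-sided permutation p = 0.2, adjusted p = 0.6). Without the reads that share the stretch the difference was -0.634. Reads outside the class had means of 57.5 to 59.8 in the same 6 samples.

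Members with 5 or 6 G took 31.8%, 19.6% and 19.8% of the members' RPM in the WT mice and 30.01%, 41.5% and 30.7% in Tau tg. WT 1 lay with the Tau tg samples, so the groups overlapped. The difference of 10.3 percentage points did not pass the test (exact two-sided permutation p = 0.3, adjusted p = 0.6) and was 3.46 points without the reads of the shared stretch.

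What the members came from differed from the rest of the reads. Of their RPM, 50.03% was named as mRNA in the deposited annotation, 30.4% as mature miRNA, 6.78% had no match, 4.73% held the shared stretch, 3.0% matched only an miRNA hairpin, 2.94% rRNA and 1.66% tRNA. Among all other reads miRNAs took 87.8%. The miRNA share of the members was 43.0%, 19.8% and 19.0% in WT and 48.1%, 27.7% and 24.9% in Tau tg. Replicate 1 of each group was the highest and the groups overlapped, with a difference of 6.29 percentage points (exact two-sided permutation p = 0.5, adjusted p = 0.667). Without Tau tg 1 it was -0.967 points.

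Members and the rest were compared within each sample by an exact two-sided sign-flip permutation test over the 6 samples, whose smallest p is 0.03125, with adjustment over 11 measures. The members' miRNA share was lower in 6 of 6 samples (permutation p = 0.03125, adjusted p = 0.0491). Reads of 19 to 25 nt, the length of miRNAs, made up 79.0% of members against 94.8% of the rest, and U at position 1, the base Ago prefers, was found in 39.3% against 67.8%. G at position 1 was found in 14.2% against 4.62%, and an exact match to the sense strand of a GENCODE mouse transcript in 25.4% against 77.8%. Each of these 4 measures had the same direction in 6 of 6 samples, with p = 0.03125 and adjusted p = 0.0491 by the same permutation test.

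The comparison was repeated without reads annotated as mature miRNA. Reads that matched only an miRNA hairpin were kept, and their part in the differences was not tested. Among reads not annotated as miRNA, U at position 1 was still less frequent in members (24.8% against 41.6%), as was an exact transcript match (3.35% against 7.98%), both in 6 of 6 samples (permutation p = 0.03125, adjusted p = 0.0491). Reads of 19 to 25 nt made up 70.1% of these members against 61.7%, with that direction in 5 of 6 samples (permutation p = 0.0938, adjusted p = 0.115). Beyond the seed, G at positions 8 to 15 did not pass the test in either set. It was 30.9% against 28.8% over all reads (permutation p = 0.125, adjusted p = 0.138) and 29.1% against 32.7% outside mature miRNAs (permutation p = 0.0938, adjusted p = 0.115).

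On the sense strand, the only one searched in the named transcript, most mRNA names of the members rest on partial matches. Of 1876 mRNA-named members whose transcript was found in GENCODE, 57 (3.04%) shared the whole read with it, and the median longest shared run was 14 nt for a median read length of 19 nt. These 57 held 1.39% of the RPM of those members. Of the 37 with at least 10 RPM, 0 were contained in the sense strand of the transcript they are named for. Over all GENCODE transcripts, 85 of the 1908 mRNA-named members without the shared stretch had an exact sense match. Another 33 matched exactly on the antisense strand only. The names are therefore given below only as those of the annotation.

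The leading read, cGCGGGUgcuuacugacccuuu, is an example. It is named for Plec, which encodes the cytoskeletal linker plectin, and shared 15 of its 22 bases with that transcript. It was at 222, 1609 and 2252 RPM in WT 1 to 3 and 706, 1624 and 1854 RPM in Tau tg 1 to 3. Replicate 1 was again the lowest of each group. It matched no miRNA in the deposited annotation. Its seed GCGGGU has a viability of 30.9 and, over 64 sequences, was the most abundant of the class, at 344, 2170 and 2764 RPM in the WT mice and 984, 2110 and 2653 RPM in the Tau tg mice. The log2 difference was 0.47 ± 0.39 (SE; limma adjusted p = 0.991), and -0.47 without WT 1.

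A few seeds held much of the RPM. The 3 most abundant held 36.4% of the members' total and the 10 most abundant 51.7%, and 16 seeds had a mean of at least 100 RPM. In 13 seeds miRNAs took over 50% of the RPM. The seed GCGGGG, which stands for miR-744-5p, belonged to these, as did GGAGAG for miR-185-5p, GAGGGG for miR-423-5p and GGGGUA for let-7 reads with a changed base. By contrast miRNAs took under 1% of the RPM of GCGGGU, which led the class, of the unmatched GGGUCG, and of GGGGGC.

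The other seeds of the 10 most abundant held mixed or unmatched reads. The seed GGGGCC (viability 26.4) was at 67.0, 413 and 109 RPM in the WT mice and 104, 184 and 192 RPM in the Tau tg mice. The seed GGGUCG (38.1) was at 52.0, 249 and 194 RPM in the WT mice and 86.2, 134 and 228 RPM in the Tau tg mice. The seed GCGGGC (21.4) was at 129, 61.0 and 181 RPM in the WT mice and 164, 102 and 271 RPM in the Tau tg mice. In each of the 3 the groups overlapped and the spread within WT was wide, and the limma adjusted p was 0.991 to 0.995.

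Members named as rRNA, tRNA or piRNA were low and often from 1 library. The most abundant tRNA-named read, with the seed GGUGAG (12.6), was at 0, 42.0 and 15.6 RPM in the WT mice and 11.4, 0 and 7.77 RPM in the Tau tg mice. The leading rRNA-named read (seed CUGGGG, 24.9) was found in WT 2 alone, at 66.4 RPM, and the tRNA-named read with the seed CGGGGA (69.7) likewise, at 56.2 RPM. The leading piRNA-named read (seed GCGGGG) did not exceed 17.6 RPM in any sample, and that of snRNA or snoRNA (seed AGGGCG, 47.7) was found in Tau tg 3 alone, at 11.05 RPM.

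Of the miRNAs, 97 had member reads, and in 50 of them the most abundant sequence itself had a G-rich seed. They came to 423 sequences, and miR-744-5p, miR-185-5p and miR-423-5p held 66.8% of the RPM. In the RefSeq set used, which lacks some named miRNAs such as miR-185-5p, 192 of 1679 mature mouse miRNAs (11.4%) have a G-rich seed. Of these, 44 (22.9%) were detected, against 617 of the 1487 others (41.5%). Arms from the 5′ side of the hairpin made up 148 of the 192 and 32 of the 44.

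miR-744-5p (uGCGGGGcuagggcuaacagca, viability 17.2) led them. It lies at chr11:65734799-65734820 on the minus strand, in an intron of Map2k4, which encodes a stress kinase. Its member reads, 55 sequences, were at 1658, 1105 and 1011 RPM in the WT mice and 1541, 1876 and 1457 RPM in the Tau tg mice. The groups overlapped through WT 1, and the log2 difference was 0.39 ± 0.32 (SE; limma adjusted p = 0.896). The other arm, miR-744-3p with the less toxic seed UGUUGC (57.0), had a mean of 36.2 RPM, so the arm with the toxic seed was 40.02 times as abundant. A start 1 base later gave CGGGGC (13) in 2.04% of its reads and 1 base earlier UGCGGG (51.3) in 1.14%.

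Single 3′ ends of miR-744-5p differed more than their sum. uGCGGGGcuagggcuaacaga was at 6.09, 0.678 and 8.26 RPM in the WT mice and 50.8, 48.5 and 44.2 RPM in the Tau tg mice, without overlap (log2 difference 3.35 ± 0.91, SE; limma adjusted p = 0.244). uGCGGGGcuagggcuaacagcaa went the other way, with 68.4, 128 and 61.5 RPM in the WT mice and 18.9, 4.18 and 40.5 RPM in the Tau tg mice (log2 difference -2.34 ± 0.78, SE; limma adjusted p = 0.584). Neither passed the adjustment, and both were picked after their values were seen.

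miR-185-5p (read as uGGAGAGaaaggcaguuccuga, viability 33.3) was at 525, 423 and 318 RPM in the WT mice and 484, 495 and 493 RPM in the Tau tg mice. The Tau tg samples lay close together and within the range of WT, and its other arm was nearly absent with a mean of 4.68 RPM. miR-423-5p (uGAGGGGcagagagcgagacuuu, viability 24.2), from an intron of Nsrp1 at chr11:77078122-77078144, was at 192, 105 and 183 RPM in the WT mice and 166, 356 and 218 RPM in the Tau tg mice. Here the arms were nearer to balance, with 149 RPM for miR-423-3p, whose seed GCUCGG scores 60.5. The log2 differences were 0.26 ± 0.36 and 0.59 ± 0.46 (SE), both with a limma adjusted p of 0.896.

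In several hairpins the arm with the G-rich seed was the minor one. miR-342-5p (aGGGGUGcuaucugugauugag, viability 12.3), from an intron of Evl at chr12:108658638-108658659, was at 86.7, 73.2 and 41.3 RPM in the WT mice and 20.9, 63.6 and 48.3 RPM in the Tau tg mice, against a mean of 1547 RPM for miR-342-3p with its seed CUCACA (64.1). miR-323-5p (viability 11.7) was at 44.0, 3.39 and 71.6 RPM in the WT mice and 47.4, 122 and 37.6 RPM in the Tau tg mice, against 911 RPM for miR-323-3p (75.6). miR-381-5p (seed GCGAGG, viability 54.9) was at 29.5, 20.3 and 22.9 RPM in the WT mice and 43.0, 39.3 and 65.1 RPM in the Tau tg mice, against 794 RPM for miR-381-3p (94.3). In each of these 3 pairs the abundant arm carried the seed with the higher viability. miR-381-5p was higher in every Tau tg sample than in any WT sample, with a log2 difference of 0.996 ± 0.72 over all its reads (SE; limma adjusted p = 0.896).

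miR-323-5p, miR-381-5p and miR-666-5p come from the large imprinted miRNA cluster of chromosome 12. miR-666-5p (seed GCGGGC, viability 21.4, chr12:109717103-109717124) varied widely within groups, at 91.8, 4.07 and 64.2 RPM in the WT mice and 91.5, 0.836 and 84.7 RPM in the Tau tg mice. Replicate 2 was near 0 in both groups, while miR-666-3p was at 407 and 607 RPM in those samples. Its 3p seed GCUGCA also scores low, at 26.9. miR-491-5p (seed GUGGGG, 15.7, intron of Focad) stayed between 29.3 and 64.03 RPM in the 6 samples, and miR-3102-5p.2-5p (seed GUGGUG, 23.1, exon of Arhgef17) between 22.8 and 58.6 RPM.

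Under some miRNA names, of which 2 are described, the class of a read depended on where it started. miR-770-3p, in an exon of Meg3 at chr12:109563744-109563765, is listed in RefSeq with the seed GUGGGC (viability 21.4), yet 60.1% of its reads started 1 base later with UGGGCC (26.2). The G-rich form was at 65.1, 117 and 3.67 RPM in the WT mice and 118, 111 and 58.5 RPM in the Tau tg mice, which was 31.3% of its reads on the mean and 2.82% in WT 3. Both seeds have low scores. Under the name miR-1843b-5p, picked after its values were seen, 33.9% of the reads had UGGAGG (31.2) and 63.7% AUGGAG (87.6), a wider step in score. RefSeq lists AUGGAG as the seed of the related miR-1843a-5p, so reads of that miRNA and another start of miR-1843b-5p cannot be told apart here.

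Tested over all their reads, 0 of 41 miRNAs with a G-rich main seed passed limma's adjusted p under 0.05, as for all 689 miRNAs tested, of which 0% passed. At an unadjusted p under 0.05 there was 1 of 41, against 3.63% of all. It was miR-128-1-5p, at 0.936, 0 and 0.917 RPM in the WT mice and 8.40, 46.0 and 1.64 RPM in the Tau tg mice (limma adjusted p = 0.896). On recovered reads edgeR called 0 of 41 (against 0% of all) and DESeq2 0 of 41 (against 0.726% of all). The groups did not overlap for 3 of 41, namely miR-128-1-5p, miR-184-3p and miR-381-5p, against 8.71% of all. The median log2 difference was 0.34 for these 41 and 0.25 for all miRNAs, and median-of-ratios scaling moved the latter to 0.09 and the former to 0.25.

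Not all G-rich seeds of miRNA reads are written in the genome as such. Of the RPM of members that matched an miRNA or its hairpin, 60.9% had the annotated start and 3.99% a shifted start. A substitution within the seed was found in 14.0%, while 21.2% were not placed. The part not placed, 529 to 929 RPM per sample, includes miR-185-5p, for which the RefSeq set used has no entry. Over all its reads miR-185-5p was at 318 to 531 RPM. The 123 sequences with a substitution were nearly all of 1 kind: A-to-G changes made up 97.5% of their RPM in 110 sequences, and the rest were U-to-G. A change to G is what admits a read to the class, so only its comparison with other bases and other positions says more. Adenosines that are deaminated to inosine are read as G, and brain RNAs are known for it. The 7 sites with the most RPM were examined, the last of them added after its values were seen, and positions are counted from 1 at the 5′ end.

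The site of miR-379-5p, an miRNA at chr12:109709065-109709085, is shown with position 5 in capitals.
RefSeq miR-379-5p: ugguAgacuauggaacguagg
read with A5G: ugguGgacuauggaacguagg
The seed goes from GGUAGA to GGUGGA with a viability of 15.7, and the deposited annotation lists the altered read under the hairpin only. Among reads with the same other first 15 bases, A5G was found in 17.8%, 5.90% and 17.3% in WT and in 17.2%, 25.8% and 13.6% in Tau tg, over 577 to 7558 reads per sample. C and U at this position were at 0 reads, and A-to-G at the other A positions of that stretch was at 0% as well. The means were 13.7% ± 6.74 and 18.9% ± 6.26 (SD, n = 3 each), and the difference of 5.18 percentage points did not pass the test (exact two-sided permutation p = 0.6, adjusted p = 0.84 over 7 sites).

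The site of miR-540-5p, an miRNA at chr12:109586085-109586107, is shown with position 3 in capitals.
RefSeq miR-540-5p: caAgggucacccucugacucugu
read with A3G: caGgggucacccucugacucugu
A3G turns the seed AAGGGU into the G-rich AGGGGU. It was found in 1.16%, 0.375% and 0% of reads in WT and in 23.7%, 30.6% and 24.6% in Tau tg, with C and U at 0 in all 6 samples. These shares rest on 86, 267 and 47 reads in WT and 817, 98 and 341 in Tau tg, and 0 of 47 reads has a 95% Wilson upper bound of 7.56%. The group means were 0.512% ± 0.594 and 26.3% ± 3.73 (SD, n = 3 each), a difference of 25.8 percentage points in which all Tau tg samples lay above all WT samples. The exact two-sided permutation p was 0.1, the smallest that 3 against 3 allows, and 0.7 after adjustment over 7 sites. The total of miR-540-5p reads with A at this position did not separate the groups, at 39.8, 180 and 43.1 RPM in the WT mice and 88.6, 56.9 and 105 RPM in the Tau tg mice. A-to-G at positions 2 and 9 was at 0% in every sample. The DNA of these mice was not examined, so a base that differs in the genome and one changed in the RNA cannot be told apart.

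The let-7 miRNAs, which are abundant and have a seed with 3 G, gave the most altered RPM but at a low share. With A3G the seed GAGGUA (viability 50.3) becomes GGGGUA (29.4). Over let-7a, let-7b and let-7c together A3G was in 0.153%, 0.229% and 0.180% of reads in WT and in 0.195%, 0.178% and 0.147% in Tau tg, with A3C and A3U each at most 0.0149% in any sample. A-to-G was found outside these positions too, at 0.256% on the mean at position 10, beyond the seed, and at 0.0761% at position 7. None of the let-7 sites passed the exact permutation test between the groups (adjusted p = 0.84 to 0.90).

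Between Tau tg and WT, 1 G-rich seed (0.649%) passed limma's adjusted p under 0.05, against 0.125% of all 3987 seeds tested. It was GGGGGC, higher in Tau tg. At an unadjusted p under 0.05 there were 11 (7.14%, against 4.31% of all). In Tau tg 2 of these were higher (against 1.23% of all) and 9 lower (against 3.09% of all). With median-of-ratios scaling the split was 4 higher and 7 lower, against 84 higher and 92 lower of all seeds. This scaling moved the median log2 difference of all seeds from -0.16 to 0.06 and that of the G-rich seeds from -0.27 to -0.02. edgeR called 1 (0.649%, against 0.0502% of all) and DESeq2 1 (0.649%, against 0.251% of all), the same seed in both. The groups did not overlap for 18 (11.7%, against 9.56% of all), with 5 higher (against 3.14% of all) and 13 lower (against 6.42% of all).

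Of the lower seeds, of which these 2 were picked after their values were seen, GCGGGA was at 67.0, 308 and 151 RPM in the WT mice and 14.4, 61.9 and 58.5 RPM in the Tau tg mice. Similarly CGGUGG was at 29.0, 98.3 and 98.2 RPM in the WT mice and 17.2, 7.53 and 8.18 RPM in the Tau tg mice. The groups did not overlap for either, but the log2 differences of -1.93 ± 0.65 and -2.57 ± 0.94 (SE) had limma adjusted p of 0.705 and 0.913. The seed GGGGUG, which miR-342-5p carries, was at 208, 199 and 272 RPM in the WT mice and 37.3, 217 and 150 RPM in the Tau tg mice (log2 difference -1.06 ± 0.52, SE; limma adjusted p = 0.991). All miRNAs together held only 27.5% of the RPM of this seed. The groups overlapped through Tau tg 2. The miRNAs miR-200a-3p and miR-429-3p, markers of epithelium, were higher in WT 2 and WT 3 (2830 and 3692 RPM for miR-200a-3p) than in the other 4 samples (877 to 980 RPM). Another marker of choroid plexus and epithelium, miR-204-5p, did not follow them. It was at 1788, 1892 and 4824 RPM in the WT mice and 8110, 1953 and 3695 RPM in the Tau tg mice. The part of these miRNAs in the seed values was not tested. Neuronal markers were high in all samples, with miR-124-3p at 47769 to 90279 RPM.

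Single sequences gave little more. Of the 1869 members tested, 2 (0.107%) passed limma's adjusted p under 0.05, against 0.0277% of all 36070 sequences. Both had the seed GGGGGC and were higher in Tau tg. At an unadjusted p under 0.05 there were 42 (2.25%, against 2.23% of all). Of these, 27 were higher (against 1.44% of all) and 15 lower (against 0.787% of all). edgeR called 5 (0.268%, against 0.136% of all) and DESeq2 39 (2.09%, against 1.27% of all), 8 of the latter higher and 31 lower. In DESeq2 29729 of all sequences had no adjusted p. The groups did not overlap for 30 members (1.61%, against 3.60% of all). Of these, 28 were higher (against 2.46% of all) and 2 lower (against 1.14% of all). The median log2 difference was -0.34 for members and -0.16 for all sequences.

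The seed GGGGGC (viability 13) was at 14.1, 48.8 and 20.2 RPM in the WT mice and 37.1, 2823 and 1340 RPM in the Tau tg mice. Tau tg 1 lay within the range of WT, so the difference came from Tau tg 2 and Tau tg 3. The log2 difference was 4.38 ± 0.62 (SE; limma adjusted p = 6.27e-08). This SE and p rest on a variance that limma moderates towards that of seeds of like abundance. They do not measure the spread between these mice alone. In RPM, the mean was 27.7 ± 18.5 for WT and 1400 ± 1394 for Tau tg (SD, n = 3 each). With 1 sample left out the log2 difference ranged from 3.17 to 6.27. It was 3.17 without Tau tg 2 (limma adjusted p = 0.9996) and 4.01 without WT 1 (limma adjusted p = 0.0885), and passed without each of the other 4. The 2 sequences that passed were uGGGGGCacauguaaacca and uGGGGGCacauguaaaccauu, both with 0 reads in all WT samples. The first was at 0.285, 1066 and 610 RPM in the Tau tg mice (limma adjusted p = 7.75e-07). The second was at 0.285, 1113 and 381 RPM in the Tau tg mice (limma adjusted p = 3.60e-06). Both reached the mean of 1 RPM that the filter asks only through Tau tg 2 and Tau tg 3, where they were high. Their p values are therefore not separate support for a difference between the groups.

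Most of the RPM of this seed in Tau tg 2 and Tau tg 3 was in reads that held 1 stretch of 12 nt, acauguaaacca, after the seed. It occurred in 60 sequences of the table with different starts, of which 21 were members, and the members that held it were at 0, 0.678 and 0 RPM in the WT mice and 0.570, 2694 and 1250 RPM in the Tau tg mice. The same stretch followed other seeds in other samples. Reads with UAGUCG before it were at 3922, 3086 and 3.67 RPM in the WT mice and 1.28, 4.18 and 0 RPM in the Tau tg mice, and reads with GGCAGU before it at 1.87, 8.81 and 1498 RPM in the WT mice and 366, 0 and 0 RPM in the Tau tg mice. Each sample thus held the stretch mainly behind 1 seed, and the seeds divided the samples as 2, 2 and 2 and not by genotype. The other GGGGGC reads, which do not go on with the first 6 bases of the stretch, were at 14.1, 48.1 and 20.2 RPM in the WT mice and 36.6, 49.3 and 16.0 RPM in the Tau tg mice, with the groups overlapping. Without the reads that hold the whole stretch the log2 difference of GGGGGC was 1.92 (limma adjusted p = 0.882). In that fit 0 G-rich seeds passed in limma, against 4 of all 3987 seeds. At an unadjusted p under 0.05 there were 11 G-rich seeds, against 173 of all.

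The study's methods name short double-stranded RNAs called sGGGGGC and sGGCAGU, after their seeds, which were transfected into human cells in other experiments, and state that reads matching artificial sequences were removed. The same methods also list sNT1 and sCAG among the transfected RNAs. The sequences of those RNAs were not compared here. Of the 21 members and the 39 other sequences with the shared stretch, 0 matched a GENCODE transcript exactly on either strand. How the reads with the shared stretch came into these brain libraries was not tested.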

How the data were processed

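Ago-bound short RNAs of 6 mouse brain samples were analysed, 3 WT and 3 Tau tg, grouped by the sample titles. The deposited values are RPM, made by the authors with the SPOROS pipeline: reads were trimmed (Trim Galore, per the labels), compiled into unique sequences, cleared of rare reads and of artificial sequences, and annotated by BLAST against small RNA lists. Removal of rare reads leaves low values incomplete. The viability score of each seed and the authors' total score column were used as deposited, the latter in the closing section only. The table has 109434 rows, of which the 44347 that are 0 throughout the 6 samples were not used, and 0 columns belonged to other samples. The table's mRNA names refer to an older build (mm9), so no coordinates were taken from it.

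Members were sequences with at least 4 G at positions 2 to 7. The members, lists and rules were chosen with earlier results of these data known. The named items were the 12 miRNAs, 10 seeds and 10 sequences of highest mean RPM, seeds and sequences with an adjusted p under 0.05 and the 3 most abundant sequences per other RNA class, and others are said to be picked afterwards. Sequences without a mouse match are not printed, apart from the leading read and those with the shared stretch.

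All RPM values were whole multiples of 1 read (100% whole), which gave 998248 to 6879551 reads per sample. A count of 0 allows up to 3 reads, or 0.427 to 2.75 RPM, and intervals and limits cover counting error only. Summary measures were compared by exact two-sided permutation over the 20 assignments. Sequences, seeds and miRNAs were tested with limma 3.58.1 with a trend on log2(RPM + 1), keeping rows whose mean reached 1 RPM, with Benjamini-Hochberg adjustment over the whole table. Log2 differences are Tau tg minus WT on that scale and are too small for low rows. The SE and p of limma use a variance moderated towards that of rows of like abundance. They therefore do not measure the spread between mice of a single row alone. The limma fits were tested on simulated counts. The permutation tests of summary measures and the sign-flip tests were tested on values with known answers. The count models and the tests of single sites were not tested in this way. Alternatives were pseudocounts of 0.1 and 5, no filter or 10 RPM, median-of-ratios scaling, count models on recovered reads (DESeq2 1.42.0, edgeR 4.0.16), a replicate block, leaving out each sample, and leaving out the reads with the shared stretch. For single sequences the last was added after the data were seen. Reads were placed on RefSeq miRNA hairpins (GRCm38.p6) over 15 bases with at most 1 mismatch, and transcripts were those of GENCODE. The software was R 4.3.3 and Python 3.11.15 with SciPy 1.17.1, pandas 2.3.3 and NumPy 2.4.6.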

Additional observations from a re-analysis of the deposited data

Results flagged for a closer look

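Values above 0 were found in a column and in rows that the comparisons do not use. Of the 44347 rows at 0 in all 6 samples, 3146 (7.09%) have a G-rich seed, and the authors' total column sums to 13999 over them. For the members themselves this column sums to 94871, while the 6 samples sum to 67223, a difference of 27648. What the column adds up is not known here.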

How the results depend on the processing

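Of the values for single seeds and miRNAs under the alternatives, 297 kept their direction and their side of the threshold, 18 changed sign and 3 lost the call. Of the summary measures and counts, 94 were taken as unchanged, 31 moved and 6 changed sign. A summary measure was taken as unchanged if its difference kept its sign, whatever its size. A count was taken as unchanged if it did not move by more than 1.5 times. Leaving out 1 sample at a time gave a difference in the share of G-rich seed reads of -0.153 (without Tau tg 2) to 0.242 points, with -0.152 without WT 1 and -0.0672 without Tau tg 3, and a difference in their miRNA share of -0.967 (without Tau tg 1) to 14.1 points. The first was -0.131 without the reads of the shared stretch, and the second -3.36 for sequences of at least 10 RPM.

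Sequences with an adjusted p under 0.05 numbered 0 with a pseudocount of 5, 0 with the 10 RPM filter, 5 in edgeR, 39 in DESeq2, 0 without the stretch reads, and 0 to 5 with 1 sample left out, with 0 without Tau tg 2 and 0 without Tau tg 3. Over all sequences these numbered 0, 0, 49, 459 and 4, and 0 to 17 with 1 sample left out. At unadjusted p the members numbered 25, 8, 193 and 229 for the first 4 of these settings and 21 to 42 with 1 sample left out. All sequences numbered 429, 167, 2564 and 3344 for these 4, of 36070 tested (3899 with the 10 RPM filter). With 1 sample left out they numbered 531 to 942. DESeq2 and edgeR called mostly lower sequences at unadjusted p (208 of 229 and 163 of 193). The same held over all sequences (3084 of 3344 and 2207 of 2564), so it was not particular to the members. Seeds with an adjusted p under 0.05 numbered 0 without the stretch reads and 0 to 1 with 1 sample left out. All seeds numbered 4 and 0 to 6 in these settings. At unadjusted p the G-rich seeds numbered 4 in edgeR, 5 in DESeq2 and 4 to 17 with 1 sample left out. All seeds numbered 142, 159 and 105 to 232. miRNAs with a G-rich main seed at unadjusted p numbered 0 without a filter, 0 with the 10 RPM filter and 0 with median-of-ratios scaling. They numbered 3 in edgeR, 4 in DESeq2 and 0 to 3 with 1 sample left out. In the same order all miRNAs numbered 26, 19, 25, 28, 37 and 18 to 50.

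The log2 difference of GGGGUA turned to 0.12 with scaling, 0.22 in edgeR and 0.13 in DESeq2, and that of GGGGCC to -0.024 in DESeq2. With 1 sample left out the log2 difference crossed 0 for 7 seeds or miRNAs. It ranged from -0.46 to 0.84 for GGGGCC, from -0.47 to 1.03 for GCGGGU, from -0.67 to 0.45 for GGGUCG, from -0.041 to 0.24 for GGAGAG, from -0.00064 to 0.57 for GAGGGG, from -1.74 to 1.48 for miR-666-5p and from -0.37 to 0.18 for miR-491-5p. The cause of these changes was not tested.

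Over all rows, the deviations of samples with the same replicate number had correlations of -0.0693 to 0.0413. Such correlations cannot exclude that samples of the same number were handled together. Replicate 1 was the lowest of each group in the share of G-rich seed reads. What the numbers stand for was not tested. With the replicate block 2 sequences, 1 seed and 0 miRNAs had an adjusted p under 0.05, and 41, 11 and 0 an unadjusted one. Over all sequences, seeds and miRNAs these numbered 22, 4 and 0, and 809, 188 and 22. The 4 summary differences are the same under the block by construction, and its smallest p is 0.25.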
